A study of Mus musculus with 4 samples.

Results

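The members of this block are mouse miRNAs whose database accession numbers run from MIMAT0003457 to MIMAT0003516, the stretch that holds miR-680 to miR-721, without the 2 identifiers of miR-146b-5p and miR-499-5p. The chip carried 51 probes whose first identifier falls in that range, of 1265 probes in all. They were measured as cell-free miRNAs (cf-miRNAs) in plasma of male C57BL6/J mice, with 2 young mice aged 6 to 7 weeks and 2 aged mice of 23 to 24 months. No mouse was given a treatment in the labels. The labels name 1 numbered mouse for each 3D-Gene chip, and each is counted here as 1 animal. The study does not say whether plasma of more than 1 animal was combined for a chip. On the chip, RNA carrying the dye Hy5 bound to probes for mature miRNAs. Where a probe had more than 1 identifier, only the first was used. Within an age the labels number the mice 1 and 2, and the study calls these numbers experiments without saying what arrays of the same number share. The deposited signals are linear intensities, scaled by the authors to a median of 25 over the listed values of each array. A blank marks a probe without a listed value. Signals of different probes depend on the probe as well as on the RNA, so a bright probe is not shown to be an abundant miRNA.

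A miRNA is a short RNA that guides Argonaute proteins to messenger RNAs, mostly through its seed, the bases from position 2 to 8 at its 5′ end. Accession numbers are given in the order in which sequences enter the database, so a run of numbers is a run of depositions and not a family. This run came mainly from early cloning of mouse small RNAs. Many of its members are known only from rodents, and for many it is doubted whether they are processed as miRNAs at all. In plasma, miRNAs are carried in vesicles, on proteins and on lipoproteins, and they come from blood cells, vessel walls and solid organs.

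Names could be given to 2 of the 51 members, miR-680 (MIMAT0003457) and miR-721 (MIMAT0003515), because the study prints their signals under these names. It listed both for their high ratio between the ages on these same arrays. For the other 49 no source used here links identifier and name, so they are given by identifier. The mature sequences of the 2 named members are shown from a RefSeq set (GRCm38.p6) in the 5′ to 3′ direction, with the seed in capitals. Beside them are the other mouse miRNAs in the same set that share a seed with them.
miR-680: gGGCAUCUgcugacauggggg
miR-721: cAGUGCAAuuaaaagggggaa
miR-130a-3p: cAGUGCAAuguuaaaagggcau
miR-130b-3p: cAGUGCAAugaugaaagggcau
miR-130c: cAGUGCAAuguuccaaggugug
miR-301a-3p: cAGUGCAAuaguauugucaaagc
miR-6341: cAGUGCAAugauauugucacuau
miR-6389: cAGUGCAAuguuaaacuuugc
The seed of miR-680 was found in 1 of the 1679 mature sequences of that set, its own, and the seed of miR-721 in 7. The 6 partners of miR-721 found there are those shown, and they match its first 9 bases. A miRNA missing from the set would not appear here. The miR-130 and miR-301 miRNAs form a conserved family with this seed. In mice, miR-721 is known as a product of T helper 17 cells that circulates in myocarditis, the inflammation of heart muscle. Both named members have a run of 5 G, at the 3′ end of miR-680 and before the last bases of miR-721, and G makes up 10 of the 21 bases of miR-680 and 7 of the 21 of miR-721.

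The mature sequence of miR-680 is annotated at 3 loci: Mir680-1 at chr6:129691541-129691561 (plus strand), Mir680-2 at chrX:144297790-144297810 (plus strand) and Mir680-3 at chr12:35194849-35194869 (minus strand). The probe cannot say which locus its signal came from. In a global alignment the hairpins of Mir680-1 and Mir680-2 were 82.8% identical, and that of Mir680-3 was 43.5% identical to the first and 37% to the second. No identity was computed for unrelated hairpins, so these lower values do not show that the hairpin of Mir680-3 is related to the others. No other annotated gene overlapped these 3 hairpins. Mir721 lies at chr5:136375777-136375797 (minus strand), within the bounds of Cux1, which encodes a homeodomain transcription factor. Over the whole range of names from miR-680 to miR-721, RefSeq held 36 mature sequences at 35 loci. All 36 had different seeds, and 6 of those seeds also occurred outside the range. Of the 30 numbers, 24 had 1 annotated mature sequence and 6 had both arms. Their median length was 21 bases and their median GC content 51.2%, against 22 bases and 52.2% for the other 1643. A run of GGGG, searched on the RNA strand, was in 6 of the 36 (16.7%) and in 182 of the 1643 others (11.1%). These counts describe the names in the range, which are not tied to the probes.

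Most members had no listed signal in plasma of either age. Of the 51 probes, 29 (56.9%) were blank on all 4 arrays, 3 were listed on 1 array, 5 on 2 arrays, 1 on 3 arrays and 13 (25.5%) on all 4. Among the 273 probes with lower accession numbers, which hold most of the long-known conserved miRNAs, 38 (13.9%) were blank throughout and 138 (50.5%) were listed on all 4 arrays. Among the 939 probes with higher numbers, 380 (40.5%) were blank throughout and 210 (22.4%) were listed on all 4. In the young mice, 20 members (39.2%) were listed on array 1 and 14 (27.5%) on array 2, and in the aged mice 19 (37.3%) on array 1 and 15 (29.4%) on array 2. The corresponding shares were 74.7%, 59%, 65.9% and 67.4% for the lower numbers and 42%, 27.9%, 38.7% and 40.3% for the higher numbers. The block was close to the higher numbers in young mice 1 and 2 and aged mouse 1, and further below them in aged mouse 2, at 29.4% against 40.3%. On each array the block had the lowest share of the 3 ranges. This order did not hold when only signals of at least 16 were counted, where the block had 23.5% and the higher numbers 22.9% in aged mouse 1. These shares are a description. Since the listing rule was not found in the sources, a blank is not shown to be an absent miRNA.

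**Figure D1:**
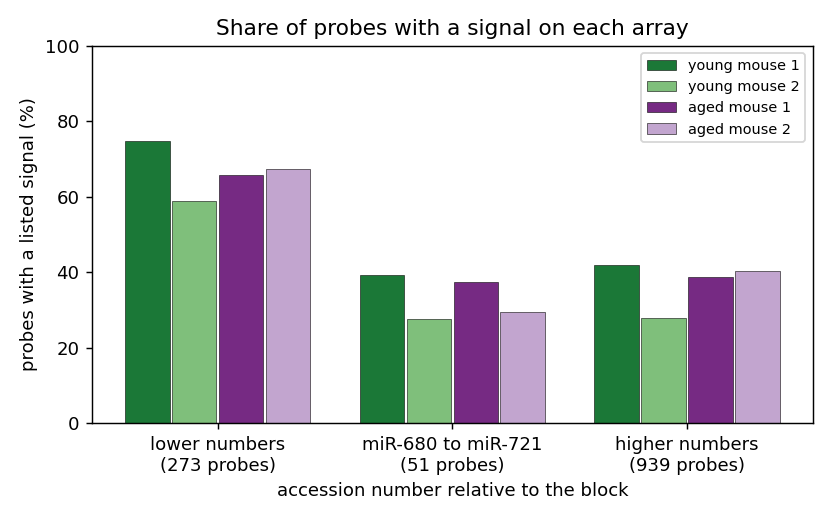
Share of probes with a listed signal (y axis, %) on each of the 4 arrays (bars, 1 per mouse) for probes with lower accession numbers, the 51 members and probes with higher accession numbers (x axis). The members range from 27.5% to 39.2%, against 59% to 74.7% for the lower numbers.

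The 9 members listed on some arrays only had signals from 7.1 to 27.4. The lowest listed values were 7, 8.1, 7 and 9.5 on the arrays of young mouse 1, young mouse 2, aged mouse 1 and aged mouse 2. MIMAT0003458 was listed at 22.6 and 11.0 in the aged mice and was blank in both young mice. It was the 1 member (1.96%) listed at both aged and neither young array, where 2.21% of all probes were. No member was listed in both young mice and in neither aged mouse, where 1.11% of all probes were. Listing on both arrays numbered 1 and on neither numbered 2 was seen for 4 members (7.84%), against 3.79% of all probes, and the opposite for none. MIMAT0003496 was the brightest of these 4, at 27.4 in young mouse 1 and 19.9 in aged mouse 1, and the other 3 ran from 7.1 to 12.3. MIMAT0003507 was listed at 13.4, 14.2 and 14.8 in young mouse 1, young mouse 2 and aged mouse 1 and was blank in aged mouse 2. Of the 3 members listed once, 2 were at 7.3 and 7.9 in young mouse 1, and the third was near the lowest value of 9.5 in aged mouse 2.

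The 13 members listed on all 4 arrays could be compared between the ages. Their signals ran from 8.1 to 19149.1. Log2 signals of 362 miRNAs listed on all 4 arrays were fitted with limma, aged minus young, and p-values were adjusted over all 362 with Benjamini and Hochberg's method. No member passed an adjusted p of 0.05 in either direction, where 0 of all 362 miRNAs (0%) were called higher and 1 (0.276%) lower. At an unadjusted p under 0.05 there was 1 member, miR-680, beside 22 of the 362 (6.08%). The fit gave 1 spread to all miRNAs, so that each difference has a standard error of 0.60. The 95% intervals given below take their width from this spread, pooled over the 362 miRNAs, many of which shift together between arrays. They are therefore not intervals from the 2 mice per age alone, and an interval without 0 is not a call. With 2 mice per age, the smallest two-sided p that an exact permutation of the mice allows is 0.333.

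**Figure D2:**
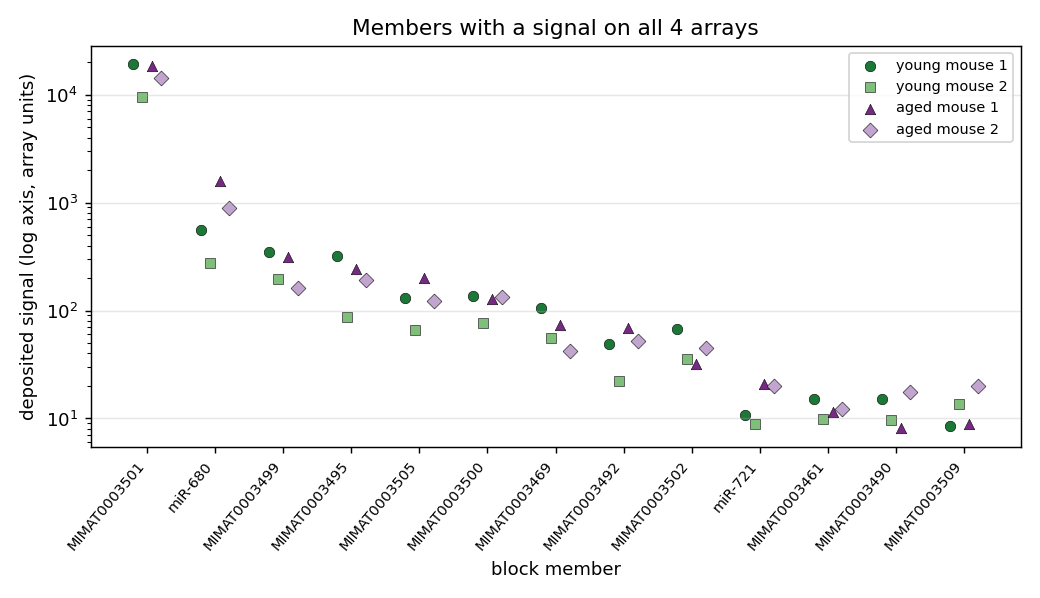
Deposited signal (y axis, log scale, array units) of the 13 members listed on all 4 arrays (x axis, ordered by mean log2 signal), with 1 point per mouse. Both aged mice lie above both young mice for miR-680, miR-721 and MIMAT0003492, and young mouse 2 lies below young mouse 1 for all but MIMAT0003509.

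The cf-miRNA miR-680 had the largest difference of the 13. Its signal was 553.6 and 277.1 in young mice 1 and 2 and 1567.2 and 888.0 in aged mice 1 and 2. Both aged signals were above both young ones, and the 4 pairings of an aged with a young mouse gave ratios from 1.60 to 5.66. Mean signals were 415 ± 196 (SD, n = 2) for the young and 1228 ± 480 (SD, n = 2) for the aged mice, a ratio of 2.96. The log2 difference was 1.59, with a 95% interval from 0.41 to 2.77 and an adjusted p of 0.53 (limma). By log2 difference miR-680 ranked 2 of the 362.

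The cf-miRNA miR-721 was dim in all mice. Its signal was 10.8 and 8.9 in young mice 1 and 2, near the lowest listed values of 7 and 8.1 on these arrays, and 20.8 and 20.2 in aged mice 1 and 2. The groups did not overlap, and all 4 pairings gave ratios between 1.87 and 2.34. The log2 difference was 1.06 (95% interval -0.11 to 2.24, adjusted p = 0.84, limma), which ranked 18 of the 362. Signals of its seed partners are not given, since no source pairs their names with identifiers.

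A ratio of means of at least 2 was found for these 2 members and for 16 of all 362 miRNAs (4.42%). A ratio of at most 0.5 was found for no member, where 3.59% of the 362 had one. MIMAT0003492 was the third member with separate groups, at 49.3 and 22.2 in young mice, against 68.4 and 51.9 in aged mice. The lower of its aged signals was just above that of young mouse 1, and its log2 difference was 0.85 (adjusted p = 0.84, limma). Both aged mice were thus above both young mice for 3 of 13 members (23.1%), where this held for 19.9% of the 362. Both aged mice were below both young mice for no member, where this held for 9.94% of the 362.

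The brightest member was MIMAT0003501, in which the ages overlapped. It had signals of 19149.1 and 9444.5 in young mice 1 and 2 and 18467.0 and 14363.3 in aged mice 1 and 2. It ranked 5 by signal on each of the 4 arrays. Alone it held 5.75% and 6.57% of the summed signal in young mice 1 and 2 and 4.94% and 4.9% in aged mice 1 and 2. The aged signals lay between the young ones. The log2 difference was 0.28 (adjusted p = 0.88, limma), and its 95% interval of -0.90 to 1.45 leaves room for a change in either direction.

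After miR-680, the next 4 members in brightness were above 100 on at least 1 array of each age. MIMAT0003499 was at 350.3 and 197.3 in young mice, against 310.8 and 163.2 in aged mice. MIMAT0003495 was at 320.6 and 87.7 in young mice, against 244.2 and 190.3 in aged mice, and the 3.66-fold gap between its young mice was the widest of the 13 within an age. In both, the ages overlapped, with log2 differences of -0.22 and 0.36. MIMAT0003505 was at 129.3 and 65.8 in young mice, against 201.4 and 121.9 in aged mice, and its log2 difference was 0.76. MIMAT0003500 was at 135.5 and 76.9 in young mice, against 126.7 and 134.5 in aged mice, and its log2 difference was 0.35. The adjusted p of these 4 was 0.84 to 0.89 (limma).

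The remaining members were lower in mean log2 signal in the aged mice or close to the floor. MIMAT0003469 was at 106.6 and 55.1 in young mice, against 73.5 and 41.9 in aged mice, with the lowest log2 difference of the 13 at -0.47. MIMAT0003502 was at 67.1 and 35.2 in young mice, against 32.0 and 44.9 in aged mice, and its log2 difference was -0.36. In both, the ages overlapped. The dim MIMAT0003461, at 15.1 and 9.9 in young mice, against 11.4 and 12.3 in aged mice, had a log2 difference of -0.05. MIMAT0003490, at 15.0 and 9.6 in young mice, against 8.1 and 17.7 in aged mice, had one of -0.003. MIMAT0003509 was at 8.5 and 13.7 in young mice, against 8.8 and 20.0 in aged mice, and both of its arrays numbered 2 were above both numbered 1. No difference of these 5 members was larger than its standard error of 0.60.

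The 13 members as a group were close to all 362 miRNAs. Their median log2 difference was 0.30, against 0.31 for all 362, 0.14 for the 138 with lower and 0.38 for the 210 with higher accession numbers. Of the 13, 8 had a higher and 5 a lower mean log2 signal in the aged mice (61.5% higher), against 68% higher among the 362. Relative to the median of all, 6 members were above it and 7 were at or below it, and miR-680 stood 1.29 and miR-721 0.76 above it on the log2 scale.

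**Figure D3:**
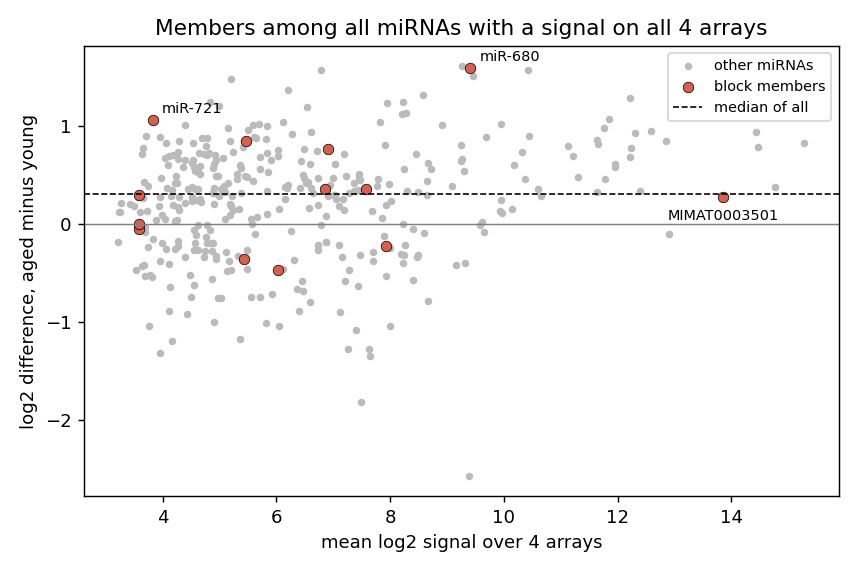
Log2 difference, aged minus young (y axis), against the mean log2 signal over the 4 arrays (x axis) for the 362 miRNAs listed on all 4 arrays, each a point, with the 13 members in red and the median of all as a dashed line. The members spread on both sides of the dashed line, and miR-680 lies near the upper edge at 1.59.

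The differences hold a shift between whole arrays. Each array had a median of 25 over its own listed values. These numbered 620 and 439 in young mice 1 and 2 and 563 and 578 in aged mice 1 and 2. The 362 shared miRNAs had a median signal of 67.9 and 35.15 in young mice 1 and 2 and of 62.1 and 55.95 in aged mice 1 and 2. Whether the unlike counts of listed values set this shift was not tested. Young mouse 1 was above young mouse 2 for 12 of the 13 members and for 344 of all 362. Aged mouse 1 was above aged mouse 2 for 8 of the 13 members and for 173 of the 362. The median log2 gap of the members was 0.93 between the young mice and 0.36 between the aged mice, against 0.87 and -0.05 for all 362. Both gaps of the members were larger than their median difference between the ages, 0.30.

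Within each array number, aged minus young, a comparison chosen after seeing the data, the aged signal was higher in both numbers for 5 of the 13 members and lower in both for 2, where this held for 37.8% and 12.7% of the 362. For miR-680 the aged over young ratio was 2.83 in number 1 and 3.20 in number 2, and for miR-721 it was 1.93 and 2.27. The other 3 higher in both were MIMAT0003492, MIMAT0003505 and MIMAT0003509, of which MIMAT0003505 had log2 differences of 0.64 and 0.89. The 2 lower in both were MIMAT0003469, with log2 differences of -0.54 and -0.40, and MIMAT0003499, with -0.17 and -0.27, although their ages overlapped over the 4 arrays. The other 6 were lower in number 1 and higher in number 2. The median log2 difference of the members was -0.10 in number 1 and 0.81 in number 2, against -0.12 and 0.75 for all 362.

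When each array was centred on the median of the shared miRNAs, every log2 difference was lower by the same amount. On this scale of equal medians miR-680 was at 446 and 431 in young mice 1 and 2 and at 1381 and 868 in aged mice 1 and 2. Its log2 difference was 1.32 (standard error 0.42, adjusted p = 0.048, limma), the 1 call among the 13, where 4.42% of the 362 were called. With quantile normalization the difference was 1.11 (adjusted p = 0.31, limma), and the call was lost. On the deposited scale, leaving out young mouse 1 or 2 gave 2.09 or 1.09, and leaving out aged mouse 1 or 2 gave 1.18 or 2.00.

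On the scale of equal medians miR-721 was at 8.70 and 13.9 in young mice, against 18.3 and 19.7 in aged mice, and its log2 difference was 0.79 (adjusted p = 0.39, limma). The signals of MIMAT0003501 came within 14043 to 16267 on all 4 arrays, and its log2 difference was 0.005. Groups that overlapped before were then separate for 5 members. Both aged mice were above both young mice for 4 of the 13, the earlier 3 and MIMAT0003505, where 21.8% of the 362 were. Both aged mice were below both young mice for 4 of the 13, where 22.7% of the 362 were. These 4 were MIMAT0003461, MIMAT0003469, MIMAT0003499 and MIMAT0003502, with log2 differences from -0.74 to -0.32, and none passed the threshold. With quantile normalization both aged mice were above both young mice for 5 of the 13 and below for 2, where 26.8% and 21% of the 362 were. The split of all 362 moved from 68% to 53.9% higher on the scale of equal medians, and that of the members stayed at 8 of 13.

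**Figure D4:**
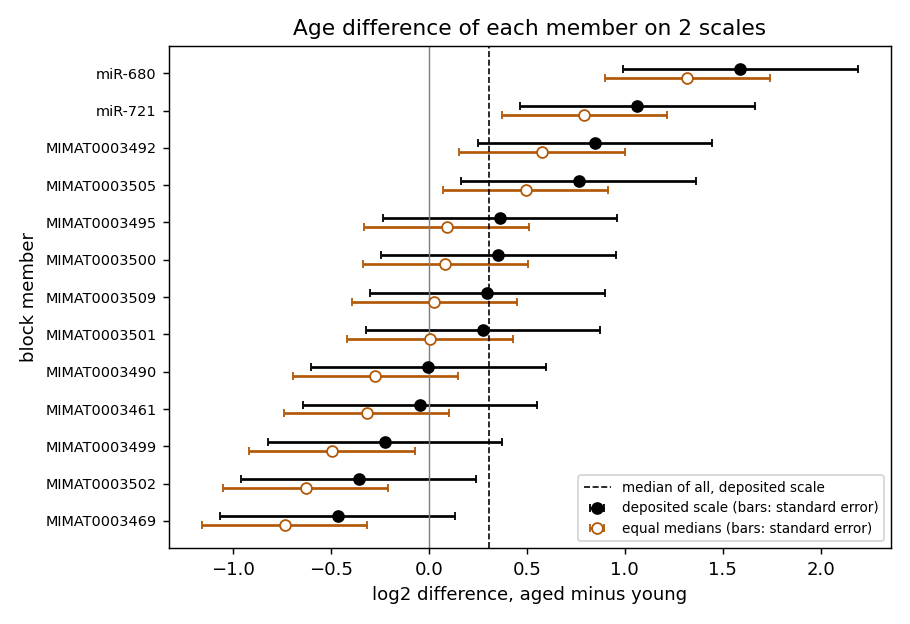
Log2 difference, aged minus young (x axis), of the 13 members (y axis) on the deposited scale (filled points) and on the scale of equal medians (open points), with bars of 1 standard error from limma and the median of all 362 miRNAs on the deposited scale as a dashed line. On the deposited scale miR-680 and miR-721 lie more than 1 standard error above the dashed line, and MIMAT0003469 and MIMAT0003502 more than 1 below it.

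Of 9 markers of blood and tissue cells that were planned, 3 could be paired with an identifier. In young mice 1 and 2 and aged mice 1 and 2, miR-223-3p of myeloid cells and platelets was at 269.1, 141.4, 429.9 and 499.2. The muscle miRNAs miR-1a-3p and miR-133a-3p were at 525.0, 214.8, 56.8 and 159.2 and at 362.6, 155.9, 67.8 and 142.2. Both aged mice were above both young mice for miR-223-3p and below them for the muscle miRNAs. These 3 could be named because the study listed them, like miR-680, for extreme ratios on these arrays, so their directions were set by that choice. The part of blood cell or muscle RNA in the members' signals was not tested.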

How the data were processed

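Plasma RNA of 2 young and 2 aged mice was measured on 1-colour chips. The authors deposited linear intensities, scaled to a median of 25 over the listed values of an array, and blanks were kept as not listed. For background subtraction, scaling and the choice of listed probes, the method is not stated in the sources used here. Another 8 columns of intensities were left out because their headings match no mouse.

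Log2 signals without a pseudocount of the 362 of 1265 probes listed on all 4 arrays were fitted with R 4.3.3 and limma 3.58.1 (two-sided, without a block, Benjamini-Hochberg adjustment over the 362, threshold 0.05). Only the 13 members listed on all 4 arrays entered it. Ratios are aged over young arithmetic means. Summaries and figures were made in Python 3.11.15 with pandas 2.3.3, numpy 2.4.6 and matplotlib 3.10.9, and hairpins were aligned with Biopython 1.88.

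The members and lists were chosen with earlier results of these data known. Values on every array were planned for the 10 brightest members, the 5 largest differences each way, members past the threshold and members listed at 1 age alone. All 13 are given. The 2 named members and the 3 markers were named from the signals printed in the study, each matching 1 row within 0.05. A list of members of the cluster in the Sfmbt2 gene could not be formed without names. A list of miRNAs most like the brightest member was not made, because 4 arrays are fewer than the 6 needed for a correlation across samples. Alternatives tried were equal medians, quantile normalization, blanks set to the lowest value, a filter on low signals, a pseudocount of 16, a trended and robust variance, each array left out, a replicate block, the test named in the methods for the whole study, and listing at a signal of at least 16. Differences within each array number were added after seeing the data.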

Additional observations from a re-analysis of the deposited data

How the results depend on the processing

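With equal medians 1 member was called higher, miR-680, and 4 of all miRNAs were called higher and 12 lower, against 0 and 1 on the deposited scale. Of all miRNAs, 0 were called lower with quantile normalization, with a trended and robust variance and with the methods' test after adjustment, and 2 were with blanks at the lowest value. The methods' test without adjustment called 3 miRNAs higher and 4 lower, with 1 member among those higher. With 1 mouse left out, calls ran from 0 to 49 higher and 0 to 2 lower over all miRNAs and from 0 to 1 among the members, and the 49 and the 1, again miR-680, came without young mouse 1. Such a fit takes its spread from the other age alone, and the single mouse is assumed to vary alike. The median log2 difference then ran from -0.23 to 0.76 for the members and from -0.14 to 0.73 for all miRNAs, and turned negative without young mouse 2. At a signal of at least 16, 10 and 9 members counted as listed in young mice 1 and 2 and 12 in each aged mouse, or 19.6%, 17.6%, 23.5% and 23.5%, against 30.8%, 23.2%, 27.7% and 31.1% of all probes. With quantile normalization both aged mice were above both young mice for 5 members and below for 2, against 26.8% and 21% of the 362, and with equal medians they were below for 4. MIMAT0003490 turned to 0.014 with quantile normalization and 0.017 with a pseudocount of 16. Without 1 mouse, 9 members changed sign at least once. They ranged from -0.35 to 0.26 for MIMAT0003461, -0.94 to 0.010 for MIMAT0003469, -0.57 to 0.56 for MIMAT0003490, -0.57 to 1.30 for MIMAT0003495, -0.69 to 0.24 for MIMAT0003499, -0.054 to 0.76 for MIMAT0003500, -0.23 to 0.79 for MIMAT0003501, -0.82 to 0.11 for MIMAT0003502 and -0.29 to 0.89 for MIMAT0003509. The differences of miR-680, miR-721, MIMAT0003492 and MIMAT0003505 stayed positive under every alternative that tested them, but without 1 mouse they ran from 1.09 to 2.09, 0.92 to 1.20, 0.27 to 1.42 and 0.28 to 1.25. That of the dim miR-721 was 0.50 with a pseudocount of 16, and 7 of the 13 members passed the filter on low signals. The mice share numbers, and the deviations of same-numbered arrays had a correlation of 0.34 across miRNAs. With the replicate block the log2 difference of miR-680 was 1.59 (adjusted p = 0.31, limma), 0 members were called, and no other call changed.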
